A study of Triticum aestivum with 24 samples.

Results

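The genes described here lie in the middle of the wheat chromosomes as counted in genes. Each gene identifier carries its chromosome and a number that follows the order of the genes, and genes were ranked by that number within each of the 21 chromosomes, 1A to 7D. The middle genes are those between 40% and 60% of the ranks, 21614 of the 110790 genes of the table. They comprise 7263 genes of the A, 7349 of the B and 7002 of the D subgenome, and between 733 genes (4D) and 1261 genes (2B) on a chromosome. They are set against the 86447 other genes that have a place on a chromosome, divided where needed into the flanking ranks (20% to 40% and 60% to 80%, 43228 genes) and the outer ranks (43219 genes). A further 2729 genes carry no chromosome and belong to neither side. The rule used the identifier alone and no measured value.

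Wheat chromosomes are organised from the centromere to the tips. Their proximal parts are poor in recombination and are known for broadly used housekeeping genes, whereas the distal parts recombine freely and are richer in young, duplicated and narrowly expressed genes, many of them for defence. A rank counts genes and not bases, so the middle of the ranks covers the gene-poor proximal chromatin only where the 2 arms hold similar numbers of genes. Neither the centromere nor any coordinate was used here.

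Leaves of bread wheat, cultivar Chinese Spring, were studied by RNA-seq in 24 libraries, 4 for each of 6 groups. Heat plants spent 5 days at 37 °C from the boot stage and were sampled at the end of the treatment (0 DAT) and, back in the control regime, 1 day and 4 days later (1 DAT and 4 DAT; DAT stands for days after treatment). Control plants, sampled on the same days, stayed at 18 °C for 16 h of light and 16 °C for 8 h of darkness. A replicate was a pool of RNA from 18 plants, as described for the small RNA libraries of the experiment and assumed for these. All plants were of 1 cultivar and grown in a cabinet, and RNA of whole leaf tissue does not tell fewer cells of a type from less RNA per cell.

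The libraries held between 5403090 and 16111870 estimated counts. Rubisco small chain on 5B, an abundant leaf transcript, had a median of 4097 CPM, counts scaled to library size, and at least 957 CPM, and none of the 3 leaf genes recognised by their text is a middle gene. The trimmed mean of M-values (TMM) factor, by which the counts were scaled, had a mean of 1.36 in heat at 0 DAT, while the means of the remaining groups were 0.922 to 1.01, so levels and directions below are relative to the TMM scale. In 4 libraries a single gene outside the middle, TraesCS1A01G000100, held 3.67% to 6.95% of the counts. These were heat 1 DAT replicate 3, heat 4 DAT replicates 2 and 4 and control 4 DAT replicate 2.

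More of the middle genes were expressed in the leaf than of the other genes. Of the 21614 middle genes 11301 (52.3%) passed the filter on low counts and were tested, against 35481 of 86447 other genes (41.0%) and 42.9% of all genes. At 1 CPM or more in every one of the 24 libraries were 7621 middle genes (35.3%), against 25.7% of the other genes. At the opposite end, 41.9% of the middle genes and 53.6% of the other genes reached 1 CPM in no library. A count of 0 throughout was listed for 3336 middle genes (15.4%) and for 25.4% of the other genes. Genes seen at 1 CPM in some libraries and not in others made up 22.9% of the middle and 20.7% of the others, so the 2 sides were set apart by genes expressed everywhere and nowhere. Of the genes detected in any library, 60.6% in the middle and 55.4% of the others were detected in all 24.

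The profile along the chromosome was graded. The share that passed the filter was 33.8% in the first 5% of ranks and 32.2% in the last. It reached 55.1% between 40% and 45% of the ranks, and was 48.4% between 55% and 60%. The flanking ranks stood between the middle and the outer ranks, with 46.7% against 35.4% of genes tested. The values just inside and outside the borders lay close together. Just inside the lower border (40% to 42%) 56.2% of genes were tested, and just outside it (38% to 40%) 54.9%. Just inside the upper border (58% to 60%) it was 47.5%, and just outside it (60% to 62%) 45.5%.

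**Figure D1:**
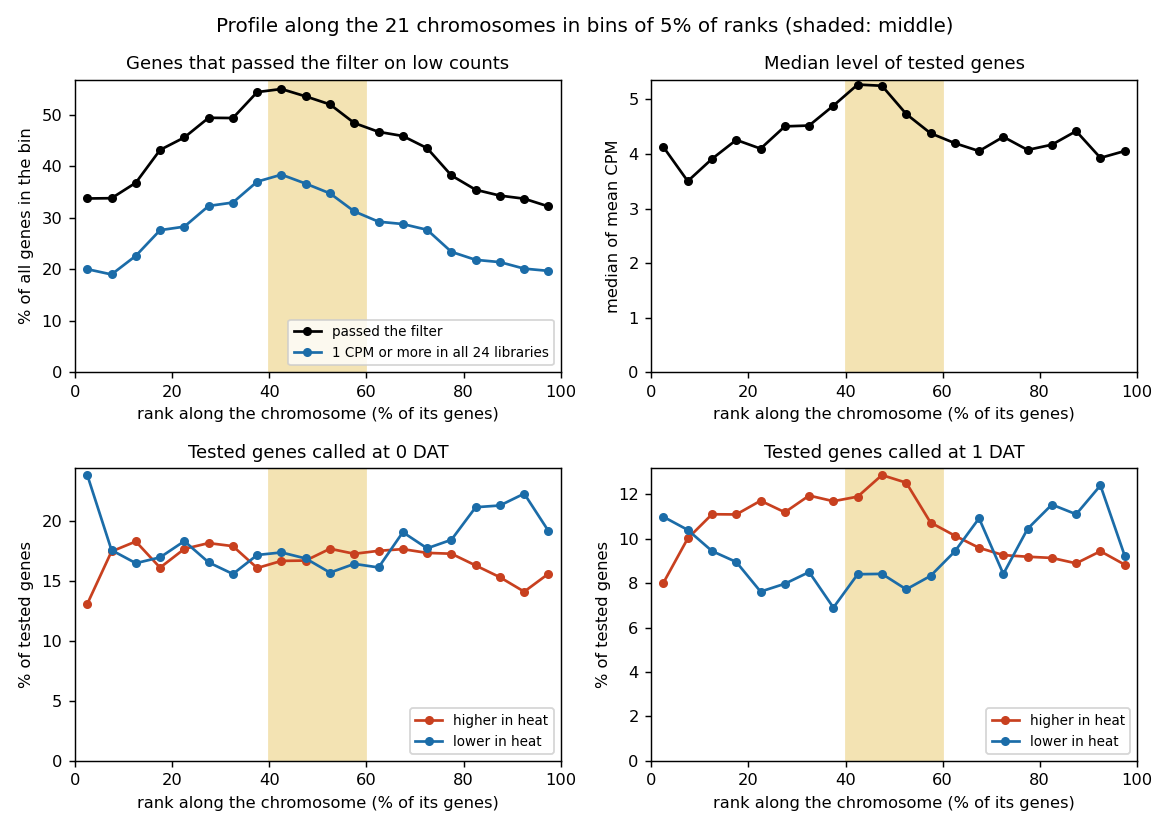
Genes in bins of 5% of ranks, pooled over the 21 chromosomes, with the rank in % of the chromosome's genes on the horizontal axes and the middle shaded. The share of genes that passed the filter (upper left, %) peaks at 55.1% at the lower border of the middle, the median level of tested genes (upper right, CPM) at 5.27 CPM in the same bin. The lower panels give the % of tested genes higher or lower in heat at 0 DAT (left) and 1 DAT (right).

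In each library separately, the middle genes were ahead. Between 45.2% and 48.1% of the middle genes had 1 CPM or more, with a mean of 46.3% ± 0.827 (SD, n = 24), against 34.3% to 37.0% of the other genes, with a mean of 35.4% ± 0.651. The difference was 10.8 ± 0.422 percentage points (SD, n = 24) and was positive in 24 of 24 libraries. At 0 DAT the heat libraries had 48.0%, 47.8%, 48.1% and 47.3% of the middle genes detected, against 45.9%, 46.1%, 45.5% and 45.3% in the control libraries. The 4 heat libraries all lay above the 4 control libraries. Among the other genes the heat libraries of 0 DAT also lay above the controls, with 36.0% to 37.0% against 34.8% to 35.8%. The distance between middle and other genes was 11.1 to 11.5 points in heat and 10.1 to 10.7 points in control at 0 DAT, ranges that did not overlap. At 1 DAT it was 10.9 to 11.4 points in heat and 10.6 to 11.003 in control, and at 4 DAT 10.2 to 11.1 in heat and 10.2 to 10.8 in control, both with overlap.

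**Figure D2:**
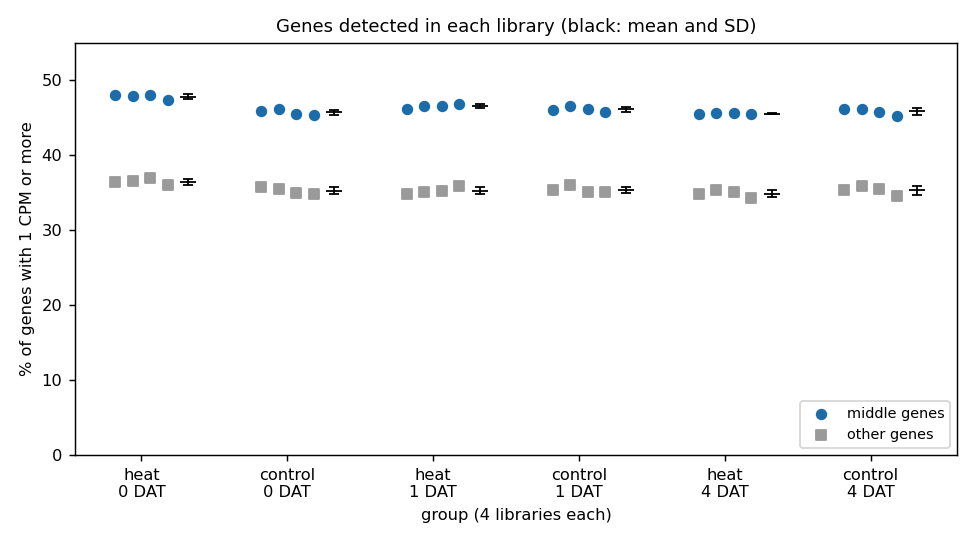
Share of genes (%) with 1 CPM or more in each of the 24 libraries, heat left of control at each time, with the mean and SD of the 4 libraries of a group in black. The middle genes (circles) lie between 45.2% and 48.1% and the other genes (squares) between 34.3% and 37.0%, with no overlap.

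The level of the expressed genes differed less than their number. CPM is not divided by the length of the gene, since the table holds no lengths, and a longer gene gives more counts at the same number of molecules. With that limit, the tested middle genes had a median level of 4.94 CPM (quartiles 1.99 and 11.97), against 4.23 CPM (1.71 and 10.8) for the other tested genes and 4.37 CPM for all. Among genes at 1 CPM or more in a library, the median of log2(CPM + 1) was 0.14 higher in the middle (SD 0.016, n = 24 libraries) and higher in all 24 libraries. With 5 CPM as the minimum it was 0.0028 and above 0 in 12 of 24. Among tested genes, very abundant ones were not more frequent, with 227 middle genes (2.01%) and 2.03% of the other tested genes above 100 CPM. Of all genes, tested or not, these were 227 of 21614 in the middle and 720 of 86447 elsewhere, a higher share in the middle. Together the middle genes gave 16.5% to 22.9% of a library's counts, those of genes without a chromosome included. They are 20.002% of the genes with a chromosome. Without the 10 most abundant genes of the table they gave 23.5% to 26.4% of the counts.

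The middle genes also had more transcripts annotated per gene, 1.31 against 1.22 for the other genes. More than 1 was annotated for 19.8% of the middle and 14.8% of the other genes. The flanking ranks had 1.27 and 17.1%, the outer ranks 1.18 and 12.6%. In bins of 5% of ranks, the most per gene, 1.39, was found in the bin ending at 40%, outside the middle, where bins had 1.26 to 1.35. The share with more than 1 was 21.95% in that outside bin and highest, 22.1%, in the bin ending at 50%. The spread between replicates, as edgeR's biological coefficient of variation, had a median of 0.204 in the middle, 0.212 among the other genes and 0.210 over all tested genes.

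Across chromosomes the share of expressed genes varied widely and its order was the same on most. The share tested was higher in the middle on 18 of the 21 chromosomes, and the 3 exceptions were 5A, 5B and 5D. In the middle it lay between 38.8% (5B) and 64.7% (4D), and among the other genes of a chromosome between 33.5% (7A) and 46.9% (4D). On group 5 the middle genes were tested in 39.98% (5A), 38.8% (5B) and 41.3% (5D) of cases, against 44.4%, 46.2% and 46.5% of the other genes of these chromosomes. The same 3 chromosomes were the exceptions for genes at 1 CPM in all 24 libraries. The widest gap was that of 7A, with 53.8% of the middle and 33.5% of the other genes.

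The rank at which expressed genes were densest was not the same on all chromosomes. In steps of 10% of the ranks, it lay inside the middle on 10 chromosomes (1D, 2A, 2B, 2D, 4B, 4D, 6B, 6D, 7A and 7D), below it on another 10 and above it on 6A. On 5B and 5D the step between 20% and 30% had the highest share, 59.9% and 61.8%, and the step between 50% and 60% had 36.6% and 38.3%. On 4A, a chromosome known for an ancient inversion and for segments acquired from other groups, the highest share was 58.6% between 10% and 20% of the ranks. The median level followed the same division and was higher in the middle on 17 chromosomes, the exceptions being 3B, 5A, 5B and 5D. By subgenome, 50.5% (A), 52.7% (B) and 53.8% (D) of the middle genes were tested, against 40.7%, 40.1% and 42.4% of the other genes.

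**Figure D3:**
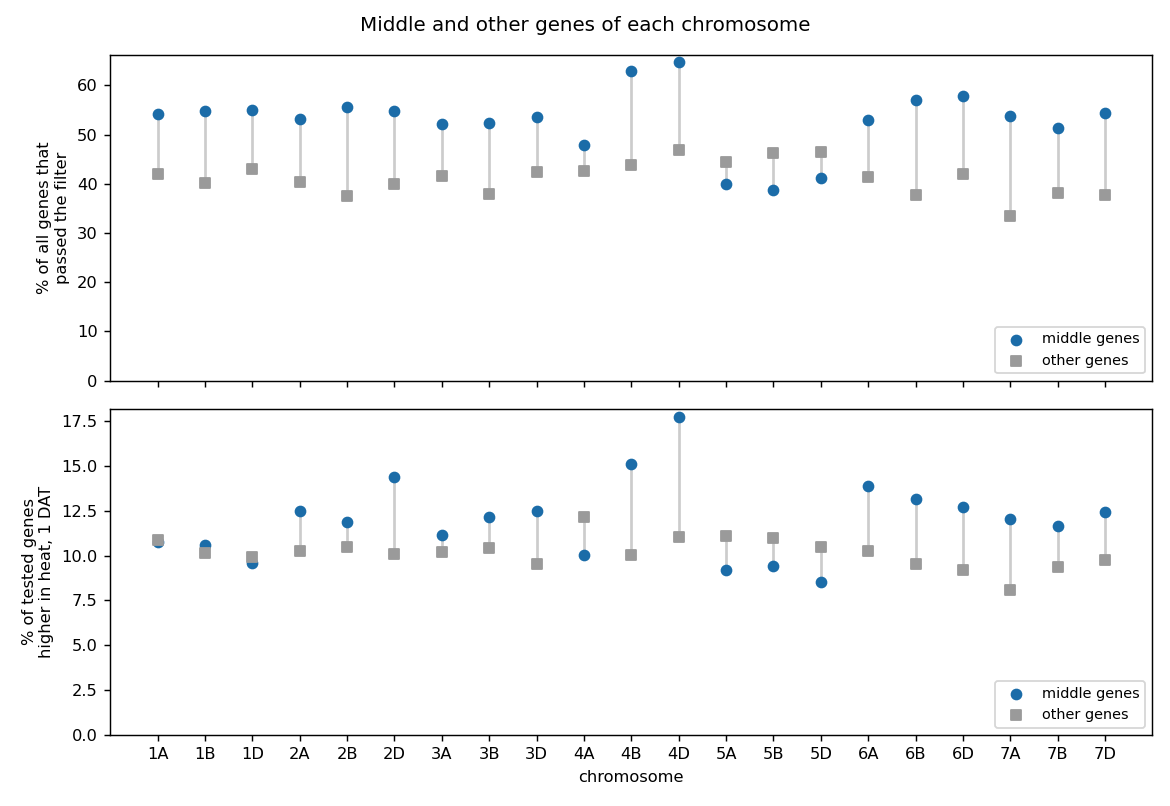
Middle genes (circles) and other genes (squares) of each of the 21 chromosomes. The upper panel gives the % of all genes that passed the filter, with the middle between 38.8% (5B) and 64.7% (4D) and below the other genes on 5A, 5B and 5D; the lower panel gives the % of tested genes higher in heat at 1 DAT, with the middle above the other genes on 15 chromosomes.

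Directly after the stress, about as many middle genes rose as fell. At 0 DAT 1929 of the 11301 tested middle genes were higher in heat (17.1%) and 1877 were lower (16.6%), by edgeR's quasi-likelihood test at an adjusted p under 0.05. Over all 47489 tested genes 16.8% were higher and 18.0% were lower. The share that rose was therefore near that of all genes, and the share that fell was below it. Among the other genes with a chromosome 16.7% were higher and 18.4% were lower. The flanking ranks had 17.4% and 17.3%, the outer ranks 15.8% and 19.7%, so that the outer ranks carried the excess of falls. With changes of at least 2-fold counted alone, 9.52% of the middle and 9.51% of the other tested genes rose, and 7.57% of the middle and 9.78% of the others fell. The median log2 fold change of the genes that rose was 1.07 in the middle and 1.10 elsewhere, and of those that fell it was -0.95 and -1.05.

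These shares depend on what they are taken of. More middle genes passed the filter, and a gene may pass it through the group in which it is high. Of all 21614 middle genes, tested or not, 8.92% were called higher and 8.68% lower at 0 DAT, against 6.87% and 7.53% of all other genes. In sum 33.7% of the tested middle genes were called (exact binomial 95% interval 32.8% to 34.6%, for counting error only), 1.41 percentage points fewer than of the other genes. That difference turned to 0.885 points more without a filter on low counts and to 0.976 points more when libraries were scaled by their totals. The share that rose was above that of the other genes, and the share that fell below it, in 16 of 16 alternative fits. These fits, like those counted below, reuse the same libraries and are not independent of each other. The flanking ranks alone had a higher share of rises (17.4%) than the middle. Scaled by totals, the median of the tested middle genes moved by 0.52 on the log2 scale, and 4104 rose and 554 fell, 88.1% of the calls against 50.7%.

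By chromosome, the share that rose at 0 DAT was higher in the middle on 13 of 21 chromosomes and the share that fell was lower on 16. The share that fell was higher in the middle on 2A, 4A, 5A, 5B and 5D. On group 5 as a whole 13.8% of the tested middle genes rose and 18.9% fell, against 17.2% and 17.8% of the other genes. On group 2 18.995% rose and 17.3% fell, against 15.9% and 18.5%.

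Genes that crossed 1 CPM with heat were counted in both directions. At 1 CPM or more in all 4 heat libraries of 0 DAT and below it in all 4 control libraries were 216 middle genes. They are 0.999% of all middle genes, against 0.836% of the other genes and 0.862% of all genes. The reverse held for 75 middle genes (0.347%), for 0.509% of the others and for 0.477% of all genes. These shares are of genes tested or not, and 52.3% of the middle and 41.0% of the other genes were tested. The 216 and 75 middle genes stand beside 11301 tested ones, and the 723 and 440 other genes beside 35481. Whether the number of expressed genes accounts for these shares was not tested.

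Classes of expression level, set by the mean CPM over all 24 libraries, differed in their shares of calls, in the middle as elsewhere. Among middle genes of 10 to 20 CPM 16.4% rose and 19.8% fell at 0 DAT, and among those above 100 CPM 2.64% rose and 60.8% fell. The other genes had 15.4% and 25.96% at 10 to 20 CPM and 6.94% and 52.1% above 100 CPM. Under 1 CPM 23.0% of the tested middle genes rose and 7.01% fell, but a gene of that mean may pass the filter through a group in which it is high. Of the 1055 tested middle genes under 1 CPM, 113 reached 1 CPM in all heat and no control libraries of 0 DAT and 7 in all control and no heat libraries. Within classes of level the middle had the lower share of falls in 7 of 8 classes, all but that above 100 CPM, and the higher share of rises in 4 of 8. At 1 DAT it had the higher share of rises in 7 of 8 classes and the lower share of falls in 8 of 8.

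**Figure D4:**
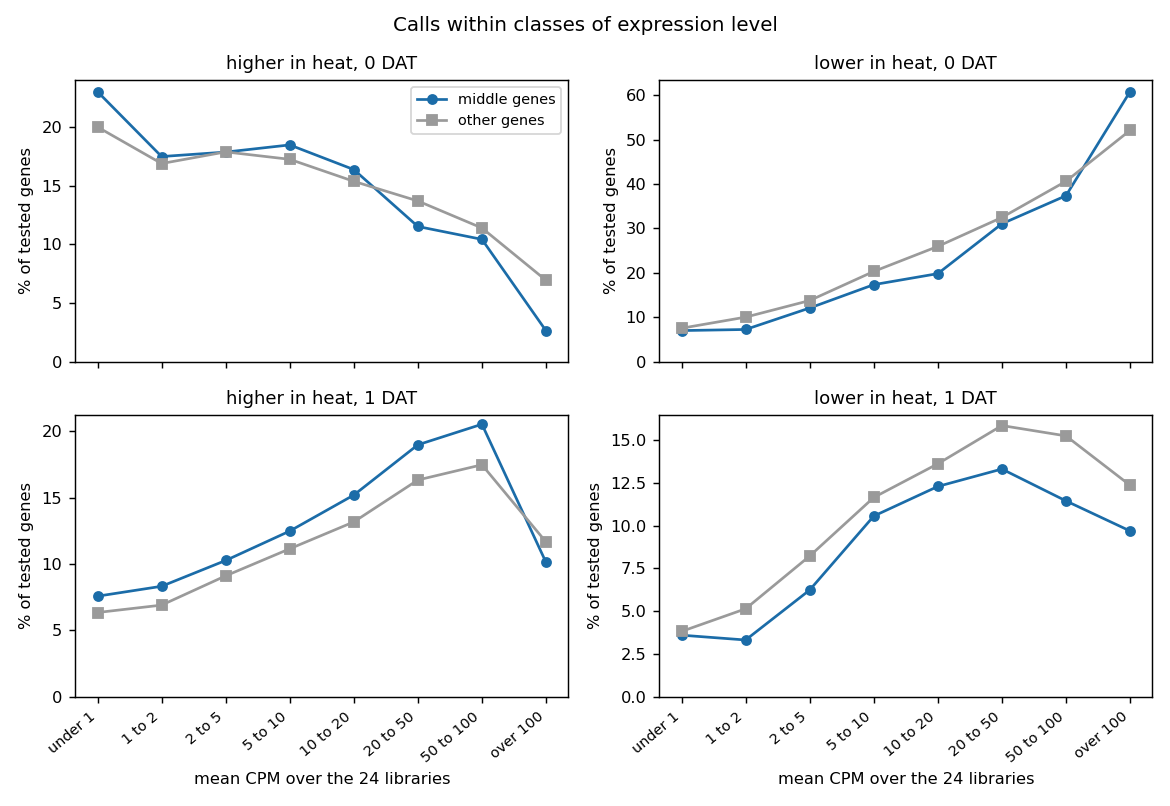
Share of tested genes (%) called higher (left) or lower (right) in heat at 0 DAT (top) and 1 DAT (bottom), by the gene's mean CPM over the 24 libraries, for middle genes (circles) and other genes (squares). Falls at 0 DAT climb with level to 60.8% of the middle genes above 100 CPM, and at 1 DAT the middle lies below the other genes in all 8 classes of falls.

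Named genes come from annotation text that the study's table of microRNA targets gives for 595 genes of this series, so they are genes selected by the study in the same experiment. Of these, 117 are middle genes, 20.2% of the 579 with a chromosome. For 3 of them that rose most at 0 DAT the microRNA and its target site are printed first, 5′ to 3′, in lower case, with bases 2 to 8 of the microRNA and the bases opposite them in capitals.
miR1120-1193-3p: tTATGAGAcggagggagtacc
its site in TraesCS6D01G207800: tgtactccctccgTCCCATAa
miR1120-2337-3p: tTCTTATAttatgggact
its site in TraesCS3B01G355900: tgtcccataaTATAAGAa
miR5062a-1: tGAACCTTggggaaaagccgcat
its site in TraesCS1D01G211600: atccagcttttgctcAAGGTTCt
Base pairs between the capitals, counting A with T and C with G alone, numbered 6 in the first and 7 in each of the other two. The microRNAs themselves were not analysed here.

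The largest rise among the annotated middle genes named here at 0 DAT was that of a homolog of ROOT HAIR DEFECTIVE 3 on 6D, in Arabidopsis a GTPase that shapes the endoplasmic reticulum (TraesCS6D01G207800, at 50.9% of the ranks). It had 25.6, 5.70, 3.63 and 14.8 CPM in heat, against 1.37, 1.98, 1.54 and 0.506 CPM in control (3.20 ± 0.87 SE as log2 fold change, edgeR adjusted p = 0.0065). The heat libraries spread widely and still all lay above the controls. At 1 DAT the control libraries spread as widely, from 1.19 to 21.7 CPM, and heat had 3.09 to 5.87 CPM, with overlap.

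A polyphenol oxidase on 3B, of the enzymes that oxidise phenols and brown cut tissue, rose with it (TraesCS3B01G355900). Heat libraries of 0 DAT had 4.33, 10.01, 6.19 and 6.58 CPM, against 1.35, 1.39, 2.33 and 0.947 CPM in control (2.14 ± 0.47 SE, edgeR adjusted p = 0.0012). It was back among the controls at 1 DAT, with 1.20 to 2.96 CPM in heat and 0.890 to 3.21 CPM in control.

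The ligase on 1D is named for the bacterial enzyme that adds diaminopimelate to a peptidoglycan precursor, and its Arabidopsis relative is a plastid protein (TraesCS1D01G211600). It had 10.96, 25.7, 21.5 and 18.9 CPM in heat and 4.66, 6.92, 4.57 and 3.98 CPM in control at 0 DAT (1.92 ± 0.28 SE, edgeR adjusted p = 1.5e-05). At 1 DAT heat was still at 23.3, 18.3, 21.8 and 28.5 CPM, and control at 0.965, 2.46, 4.06 and 1.42 CPM (3.39 ± 0.31 SE, edgeR adjusted p = 1.8e-07). The heat level had hardly moved between the 2 days and the control level was lower on the second. At 4 DAT heat had 5.16 to 6.43 CPM and control 3.41 to 5.74 CPM, with overlap.

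Among the 26 annotated middle genes that rose at 0 DAT were also enzymes on 6A, 3A, 2B and 4B. The 6A gene of a branched-chain aminotransferase, which works at the end of the synthesis and the start of the breakdown of these amino acids, had 9.43 to 15.3 CPM in heat and 3.64 to 5.21 CPM in control (TraesCS6A01G172400, 1.52 ± 0.21 SE, edgeR adjusted p = 8e-06). Pyruvate kinase on 3A, of the last step of glycolysis, had 3.94 to 8.60 CPM in heat and 2.16 to 2.73 CPM in control (TraesCS3A01G239300, 1.35 ± 0.29 SE, edgeR adjusted p = 0.001). Both groups of each gene were apart. A chitinase on 2B, an enzyme that cuts chitin of fungal walls, had 31.5 to 81.5 CPM in heat and 8.41 to 21.1 CPM in control (TraesCS2B01G369000, 1.71 ± 0.48 SE, edgeR adjusted p = 0.0075). A hexosyltransferase on 4B, which transfers sugar units, had 3.42 to 7.56 CPM in heat and 1.46 to 2.40 CPM in control (TraesCS4B01G160500, 1.54 ± 0.30 SE, edgeR adjusted p = 0.00033). These 4 calls, and those of the 3 genes before them, were kept under all 15 alternatives run for 0 DAT.

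Among the named falls, an aldo/keto reductase on 2A, of enzymes that reduce aldehydes and ketones, was the largest with text (TraesCS2A01G254200). It had 7.24, 18.7, 17.2 and 11.9 CPM in heat, against 57.3, 65.1, 105 and 61.7 CPM in control (-2.40 ± 0.38 SE, edgeR adjusted p = 4.8e-05). At 1 DAT heat had 24.2 to 64.2 CPM and control 27.6 to 66.9 CPM, so the groups lay over each other again. The Nod 19 protein on 7A was the most abundant of the annotated genes named here, with 168, 127, 145 and 94.9 CPM in heat and 308, 430, 218 and 335 CPM in control at 0 DAT (TraesCS7A01G264500, -1.27 ± 0.27 SE, edgeR adjusted p = 0.00084). Scaled by library totals the Nod 19 call ended (-0.76, edgeR adjusted p = 0.12), while that of the reductase was kept under all 15 alternatives.

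Other annotated genes fell less at 0 DAT. A RING, FYVE or PHD zinc finger protein on 5D, a domain found in many ubiquitin ligases, had 7.94 to 9.07 CPM in heat and 14.1 to 16.7 CPM in control (TraesCS5D01G239200, -0.84 ± 0.13 SE, edgeR adjusted p = 2.3e-05). The katanin subunit on 3A, of the complex that severs microtubules, had 3.84 to 4.71 CPM in heat and 7.29 to 8.07 CPM in control (TraesCS3A01G294400, -0.80 ± 0.20 SE, edgeR adjusted p = 0.003). Both were apart from their controls in every library, and under scaling by totals neither call held (-0.31 and -0.28, edgeR adjusted p = 0.24 and 0.38). A TauE/SafE family protein on 3D had 2.93 to 5.38 CPM in heat and 5.57 to 8.12 CPM in control (TraesCS3D01G318100, -0.71 ± 0.21 SE, edgeR adjusted p = 0.012), a call that ended on leaving out control replicate 3 (0.057), heat replicate 1 (0.06) or heat replicate 4 (0.051), or under scaling by totals (-0.19, edgeR adjusted p = 0.51).

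Tripeptidyl-peptidase 2 on 6B, a large protease that trims peptides, had 20.003 to 33.8 CPM in heat and 38.1 to 46.4 CPM in control at 0 DAT (TraesCS6B01G278200, -0.69 ± 0.27 SE, edgeR adjusted p = 0.048). The call ended on leaving out control replicate 1 (0.062), 2 (0.066), 3 (0.11) or 4 (0.085), likewise heat replicate 1 (0.14), 3 (0.073) or 4 (0.13), with the replicate number as a block (edgeR adjusted p = 0.062) and under scaling by totals (-0.19, edgeR adjusted p = 0.41). At 1 DAT the same gene had 54.0 to 97.4 CPM in heat and 36.3 to 67.8 CPM in control, with overlap (0.56 ± 0.27 SE, edgeR adjusted p = 0.15).

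A pair of auxin receptors changed in opposite directions. Transport inhibitor response 1 (TIR1) proteins are F-box proteins that bind auxin, and their transcripts are cut under the guidance of miR393. The middle holds a TIR1-like gene on 2A (48.2% of the ranks) and another on 2B (48.1%). Their target sites, chosen for display after their values were seen, are the same in all 21 bases, with capitals as above.
miR393-2-5p: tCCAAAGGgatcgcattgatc
site in TraesCS2A01G286200: agacaatgcgatcCCTTTGGa
site in TraesCS2B01G302900: agacaatgcgatcCCTTTGGa
At 0 DAT the 2B gene had 7.78, 6.82, 8.19 and 6.63 CPM in heat and 4.08, 3.18, 3.38 and 3.62 CPM in control (1.05 ± 0.21 SE, edgeR adjusted p = 0.00059). The 2A gene had 5.15, 5.66, 4.49 and 4.94 CPM in heat and 7.71, 8.92, 7.14 and 7.39 CPM in control (-0.61 ± 0.15 SE, edgeR adjusted p = 0.0027). Neither gene's groups overlapped, the heat libraries being the higher ones on 2B and the lower ones on 2A. Scaled by totals the 2B rise was kept and the 2A gene was no longer called (-0.10, edgeR adjusted p = 0.79). The counts were divided by the authors' program among copies that share sequence, so values of near-identical copies carry an error that the replicates do not show.

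Families with 3 tested middle copies were mostly not called. The GRAS transcription factors on 6A, 6B and 6D, of a family that holds scarecrow-like proteins, carry the same miR171 site, which was likewise chosen for display after the values were seen.
miR171-2-3p: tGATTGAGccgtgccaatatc
site in TraesCS6A01G247200, TraesCS6B01G277400 and TraesCS6D01G229400: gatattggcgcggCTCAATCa
At 0 DAT their log2 fold changes were 0.25 ± 0.22 (6A), 0.56 ± 0.27 (6B) and -0.09 ± 0.25 (6D), and edgeR's adjusted p was 0.4, 0.11 and 0.83. Scaling by totals called the 6A and 6B copies higher (0.77 and 1.08, edgeR adjusted p = 0.017 and 0.021) and turned the sign of the 6D copy without a call (0.44, edgeR adjusted p = 0.3), and the 6B copy was also called with the 8 libraries of 0 DAT alone (0.56, edgeR adjusted p = 0.037).

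Kynurenine formamidases, named for an enzyme of tryptophan breakdown in animals, lie on 6A, 6B and 6D between 40.1% and 42.9% of the ranks. The 6A copy had 5.84, 5.23, 6.61 and 4.89 CPM in heat and 13.1, 9.05, 7.59 and 9.51 CPM in control at 0 DAT (TraesCS6A01G174500, -0.79 ± 0.30 SE, edgeR adjusted p = 0.042). It was no longer called on leaving out control replicate 1 (0.15), 2 (0.056) or 4 (0.062), likewise any of heat replicates 1 (0.072), 2 (0.091), 3 (0.051) and 4 (0.1), with the replicate number as a block (edgeR adjusted p = 0.057) and under scaling by totals (-0.29, edgeR adjusted p = 0.6). The copies on 6B and 6D were at 0.33 ± 0.36 and 0.06 ± 0.27 (TraesCS6B01G203100 and TraesCS6D01G163600, edgeR adjusted p = 0.51 and 0.9). A nuclear transcription factor Y subunit on 4A was at 0.34 ± 0.20 (TraesCS4A01G277300, edgeR adjusted p = 0.2) and was called higher under scaling by totals (0.85, edgeR adjusted p = 0.045). A syntaxin on 4A, of the proteins that fuse membranes, rose, with 2.93 to 5.59 CPM in heat and 1.02 to 2.33 CPM in control (TraesCS4A01G208100, 1.27 ± 0.35 SE, edgeR adjusted p = 0.0067).

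The middle genes named here without annotation text had larger changes, which follows from their selection. At 0 DAT 2333 calls of middle genes met the limits for naming, and 21 of these had text. The 2 largest without text in each direction were thus drawn from far more genes. Whether genes without text change more was not tested. TraesCS2D01G311400 had 35.7, 10.04, 23.0 and 8.53 CPM in heat at 0 DAT and a count of 0 in all 4 control libraries. TraesCS4A01G226700 had 51.1, 14.3, 11.2 and 8.44 CPM in heat and likewise 0 in control. Against a floor of 3 counts per library they were at least 69.5-fold and 76.5-fold higher in heat (edgeR adjusted p = 1.5e-07 and 1.6e-06). Both were nearly gone at 1 DAT, the first with 0 to 0.342 CPM and the second with 0 to 1.54 CPM in heat.

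In the other direction, TraesCS7D01G249800 had 0.641, 0.503, 0.0911 and 0.0982 CPM in heat, against 35.3, 32.4, 54.8 and 43.6 CPM in control at 0 DAT (-6.67 ± 0.53 SE, edgeR adjusted p = 4.6e-09). TraesCS7A01G251800 had 0.299, 0.189, 0.219 and 0.196 CPM in heat and 17.9, 16.1, 22.4 and 15.2 CPM in control (-6.25 ± 0.46 SE, edgeR adjusted p = 1.8e-09). Near silence in all heat libraries was followed by values among the controls. At 1 DAT the 7D gene had 10.7 to 34.1 CPM in heat and 12.4 to 50.2 CPM in control, and the 7A gene 2.89 to 13.1 CPM and 7.29 to 17.3 CPM. The calls of these 4 genes were kept under all 15 alternatives.

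**Figure D5:**
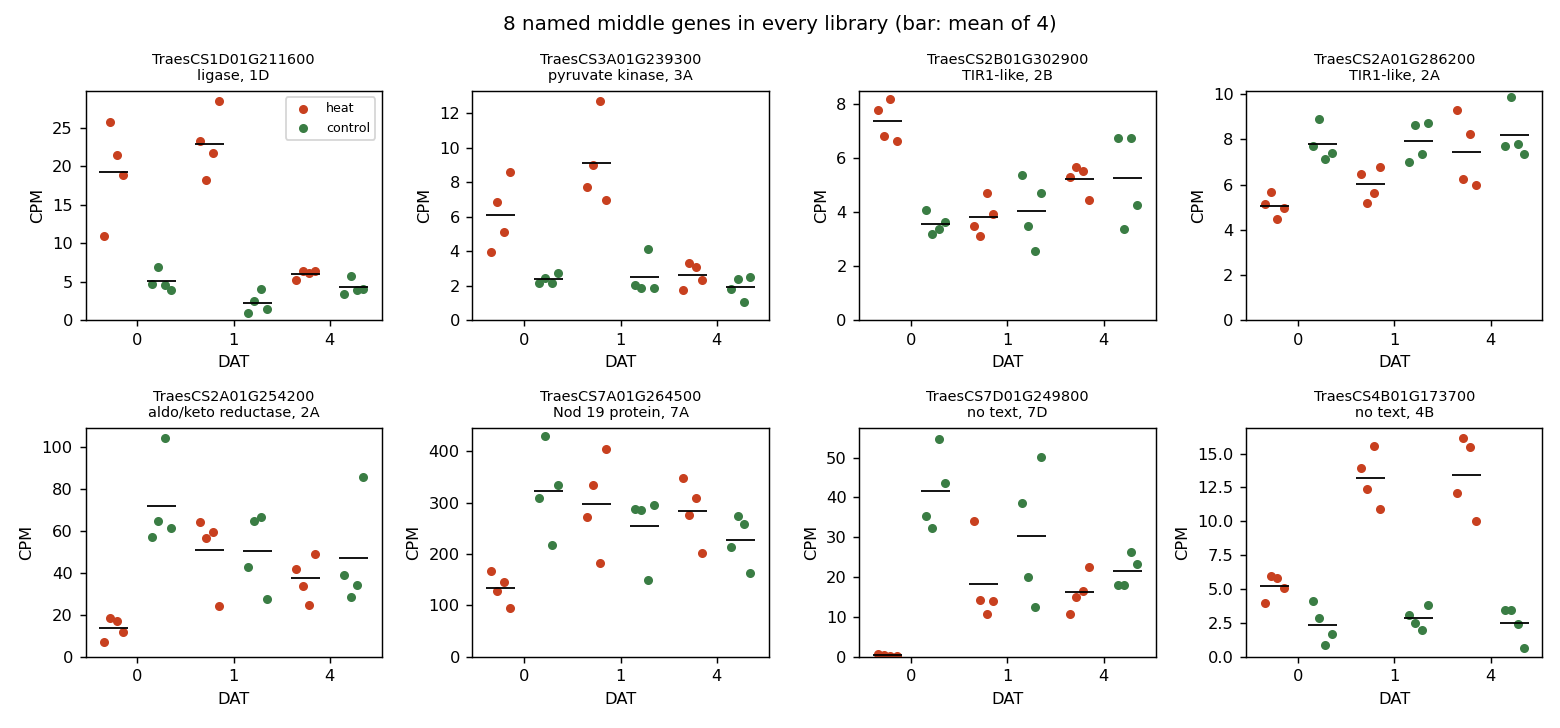
CPM of 8 named middle genes in every library, by days after treatment (DAT) with heat left of control, and the mean of 4 libraries as a bar. The ligase on 1D has 18.3 to 28.5 CPM in heat at 1 DAT against 0.965 to 4.06 CPM in control, TraesCS7D01G249800 has at most 0.641 CPM in heat at 0 DAT, and TraesCS4B01G173700 has 10.002 to 16.1 CPM in heat at 4 DAT against 0.652 to 3.49 CPM in control.

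The 3 most abundant middle genes lay 1 each on 3A, 3B and 3D, at 42.6%, 42.3% and 40.9% of the ranks, and have no annotation text. Over the 24 libraries they averaged 2793 CPM (TraesCS3A01G230000), 2953 CPM (TraesCS3B01G259300) and 3079 CPM (TraesCS3D01G223300). At 0 DAT the 3A gene had 741, 1680, 1478 and 1323 CPM in heat and 2852, 2510, 4162 and 2945 CPM in control, and the other genes moved alike. Their log2 fold changes were -1.26 ± 0.41, -1.04 ± 0.38 and -1.15 ± 0.41 SE (edgeR adjusted p = 0.021, 0.039 and 0.033). Heat replicate 1 had the lowest and control replicate 3 the highest value of each of the 3 genes on that day, and without either library no call held, with adjusted p of 0.075 or 0.069 on 3A, 0.12 or 0.11 on 3B and 0.11 or 0.11 on 3D. The 3D call also ended without heat replicate 4 (0.071), and the 3B call without control replicate 1 (0.054) or 4 (0.057), heat replicate 3 (0.058) or 4 (0.078), and with the replicate number as a block (edgeR adjusted p = 0.052). Together they held 2.73% of the counts of the middle genes in heat and 4.53% in control at 0 DAT.

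One day after the stress, rises outnumbered falls in the middle. Of the tested middle genes 1360 were higher in heat (12.03%) and 929 were lower (8.22%), against 10.2% and 9.46% of the other genes. Over all tested genes 10.7% were higher and 9.16% were lower. The flanking ranks had 10.7% and 8.69%, and the outer ranks 9.64% and 10.5%. From the outer over the flanking ranks to the middle the share that rose climbed and the share that fell declined. In bins of 5% of ranks, falls did not decline across the lower border. The bin ending at 40%, outside the middle, had 11.7% rises and the lowest share of falls, 6.90%. The bin ending at 45%, inside it, had 11.9% and 8.40%. At the upper border the bin ending at 60%, inside, had 10.7% and 8.33%, and that ending at 65%, outside, 10.1% and 9.43%. Of the middle calls 59.4% were rises, of the other calls 52.0%. Taken of all genes, tested or not, 6.29% of the middle and 4.197% of the others rose, and 4.30% and 3.88% fell. Again the order of the tested shares held in 16 of 16 alternative fits, and scaling by totals left 1029 rises and 311 falls (76.8% rises against 59.4%).

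The share that rose at 1 DAT was higher in the middle on 15 of 21 chromosomes, the exceptions being 1A, 1D, 4A, 5A, 5B and 5D. It lay between 8.51% (5D) and 17.7% (4D) in the middle and between 8.06% (7A) and 12.2% (4A) among the other genes. The share that fell was lower in the middle on 15 chromosomes as well, all but 1A, 1B, 1D, 4B, 5A and 5D. On group 6, where the middle was most apart, 13.2% rose and 6.17% fell, against 9.66% and 9.39% of the other genes. On group 5 it was 9.03% and 10.5%, against 10.9% and 9.002%.

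Of the 90 tested annotated middle genes 5 rose and 4 fell at 1 DAT, 10% in all, against 15.8% of the 284 tested annotated genes elsewhere and 20.3% of all tested middle genes. Of these calls 5 had groups that did not overlap and at least 5 CPM in the higher group. They include the ligase on 1D given above. Pyruvate kinase on 3A kept its rise, with 7.74, 9.03, 12.7 and 7.004 CPM in heat and 2.02, 1.86, 4.15 and 1.88 CPM in control (TraesCS3A01G239300, 1.89 ± 0.30 SE, edgeR adjusted p = 0.00012). The 7A gene of a copper pump, an ATPase that moves copper across membranes, had 19.9, 15.7, 21.7 and 19.8 CPM in heat and 10.1, 10.4, 15.1 and 9.33 CPM in control (TraesCS7A01G239700, 0.78 ± 0.16 SE, edgeR adjusted p = 0.0015). Its groups had overlapped at 0 DAT (10.3 to 13.7 CPM in heat, 8.34 to 11.02 CPM in control). The aminotransferase on 6A was at 0.73 ± 0.21 SE (TraesCS6A01G172400, edgeR adjusted p = 0.017), a call that ended without control replicate 1 (0.054) or heat replicate 1 (0.06). The zinc finger gene on 5D stayed lower, with 8.17 to 11.4 CPM in heat and 12.4 to 14.3 CPM in control (TraesCS5D01G239200, -0.51 ± 0.13 SE, edgeR adjusted p = 0.0072), a call that ended with the 8 libraries of 1 DAT alone (edgeR adjusted p = 0.068) and under scaling by totals (edgeR adjusted p = 0.18). Squalene monooxygenase on 4B, of sterol synthesis, had 32.7 to 46.0 CPM in heat and 42.6 to 79.0 CPM in control, with overlap (TraesCS4B01G235500, -0.69 ± 0.22 SE, edgeR adjusted p = 0.029).

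Of the unannotated genes at 1 DAT, TraesCS4D01G180800 had 7.75, 2.35, 1.65 and 22.6 CPM in heat and 0.280, 0, 0 and 0.290 CPM in control (5.89 ± 1.04 SE, edgeR adjusted p = 0.00037). Its values at 0 DAT were 34.7, 8.78, 3.82 and 9.93 CPM in heat and at most 0.0837 CPM in control. TraesCS1B01G239500 had 20.9 CPM in heat replicate 3 and 0.299 to 0.683 CPM in the other heat libraries, against 0 to 0.134 CPM in control (5.77 ± 1.60 SE, edgeR adjusted p = 0.015). Replicate 3 is the library in which TraesCS1A01G000100 held 6.95% of the counts, and without it the 1B gene was not called (2.49, edgeR adjusted p = 0.24). Lower in heat were TraesCS2A01G323000, with 0.0953, 0.697, 2.96 and 0.171 CPM against 7.85, 11.8, 8.05 and 7.89 CPM in control (-3.51 ± 0.58 SE, edgeR adjusted p = 0.00017), and TraesCS3D01G260500 (-3.54 ± 1.00 SE, edgeR adjusted p = 0.015), whose call was lost without control replicate 2 (0.16).

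After 4 days few middle genes still differed. By edgeR's quasi-likelihood test 21 were higher in heat and 26 were lower, 0.186% and 0.230% of those tested, against 0.149% and 0.273% of the other genes. The shares over all tested genes were 0.158% and 0.274%. The middle is not told from the rest by such numbers. The 47 calls became 120 with DESeq2, 125 with edgeR's likelihood ratio test and 31 with the replicate number as a block. They became 36 without control replicate 4, 12 to 28 without any other library of 4 DAT and 4 without the 4 libraries that TraesCS1A01G000100 dominated. An unadjusted p under 0.05 was found for 1235 middle genes, 10.9% of those tested, against 10.6% of the other tested genes. Of the 90 tested annotated middle genes 0 were called by edgeR's quasi-likelihood test, its likelihood ratio test or DESeq2, and 7 had an unadjusted p under 0.05.

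The 2 unannotated genes named as higher at 4 DAT were also called higher at 0 and 1 DAT. TraesCS4B01G173700 had 12.1, 16.1, 15.5 and 10.002 CPM in heat and 3.49, 3.42, 2.42 and 0.652 CPM in control at 4 DAT (2.45 ± 0.37 SE, edgeR adjusted p = 0.0044). It was at 1.11 ± 0.36 at 0 DAT and 2.18 ± 0.36 at 1 DAT (edgeR adjusted p = 0.019 and 0.00015). TraesCS2D01G280400 had 4.10, 7.07, 3.66 and 6.79 CPM in heat and 0.700, 0.843, 1.70 and 1.73 CPM in control at 4 DAT (2.04 ± 0.35 SE, edgeR adjusted p = 0.011), after 1.06 ± 0.33 and 2.05 ± 0.37 at 0 and 1 DAT (edgeR adjusted p = 0.016 and 0.00039). Both calls of 4 DAT were kept without any 1 library, and ended with the 8 libraries of 4 DAT alone (edgeR adjusted p = 0.051 and 0.071). The second also ended without the 4 dominated libraries (1.45, edgeR adjusted p = 0.27).

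Lower at 4 DAT was TraesCS3D01G260500, with 0.947, 0.834, 0.407 and 0.200 CPM in heat and 8.02, 15.9, 5.31 and 27.9 CPM in control (-4.55 ± 1.00 SE, edgeR adjusted p = 0.042). TraesCS1D01G207100 had 0.842, 0.834, 1.25 and 0 CPM in heat and 5.34, 15.4, 4.54 and 20.2 CPM in control (-3.79 ± 0.78 SE, edgeR adjusted p = 0.03). All 8 values of each gene kept the groups apart. The first call ended on leaving out control replicate 1 (0.056), 2 (0.082) or 4 (0.093), likewise heat replicate 1 (0.12), 2 (0.092), 3 (0.13) or 4 (0.099) and with the replicate number as a block (edgeR adjusted p = 0.063), and the second on leaving out control replicate 2 (0.074) or 4 (0.066), likewise heat replicate 1 (0.1), 2 (0.083), 3 (0.073) or 4 (0.08) and with the 8 libraries of 4 DAT alone (edgeR adjusted p = 0.062). Without the 4 dominated libraries neither was called (edgeR adjusted p = 0.33 and 0.32).

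Most of the heat response of the middle had ended by 4 DAT. Of the 1929 middle genes higher at 0 DAT, 658 were called higher at 1 DAT (34.1%, and 48.4% of the rises of 1 DAT) and 16 at 4 DAT. Among the other genes 30.7% of the rises were called again at 1 DAT. Of the 1877 genes lower at 0 DAT, 453 were called lower at 1 DAT (24.1%) and 16 at 4 DAT, while among the other genes it was 28.5%. Whether these shares differ was not tested. Calls in the opposite direction at 1 DAT were made for 43 of the rises (2.23%) and 53 of the falls (2.82%), against 2.32% and 2.30% among the other genes. The median log2 fold change of the 0 DAT rises over the 3 days was 1.07, 0.48 and 0.07, and that of the falls was -0.95, -0.32 and -0.07. At all 3 times 16 middle genes were higher and 14 lower, 0.142% and 0.124% of those tested, against 0.0874% and 0.203% of the other tested genes. The comparisons of each day have their own control libraries.

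A test of the heat effect at 1 DAT against that at 0 DAT called 1262 tested middle genes, of which 757 shifted up (6.70%) and 505 down (4.47%), against 6.51% and 4.39% of all tested genes. For 4 DAT against 0 DAT it called 1733, 896 shifting up (7.93%) and 837 down (7.41%), against 8.63% and 6.58% of all. Here the middle had fewer shifts up and more shifts down than the other genes (8.86% and 6.34%), in 24 of 24 alternative fits. With a block for each plant pool, since each plant gave a leaf on every day, 873 and 1347 middle genes were called. That a replicate number marks the same pool on all 3 days was assumed. Same-numbered libraries of different days correlated at -0.486 to 0.247 in heat and -0.528 to 0.390 in control. Scaled by totals 22.7% and 9.18% of the calls were shifts up, against 59.98% and 51.7%.

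The annotated middle genes as a whole rose more often than they fell at 0 DAT. Of the 117 genes 90 were tested, of which 26 rose, 8 fell and 56 were not called, with a median log2 fold change of 0.33 beside 0.06 for all tested middle genes. Of the 284 tested annotated genes elsewhere 50 rose and 56 fell, with a median of 0.05. These genes were chosen by the study from degradome libraries of the same plants, and their number is no independent evidence of a direction. In sum 37.8% of the annotated middle genes and 37.3% of those elsewhere were called at 0 DAT. By annotation text, 3 of 6 tested middle genes for cell walls and sugar metabolism rose at 0 DAT and 0 fell, against 3 and 1 of 6 elsewhere. Of 8 genes for translation and RNA processing 1 rose and 0 fell, against 6 and 0 of 22 elsewhere. Among 9 transcription factors 1 rose and 1 fell, against 3 and 7 of 39 elsewhere. Among 5 genes of the ubiquitin system 2 rose and 1 fell, against 3 and 2 of 18 elsewhere, and among 7 transporters 2 rose and 2 fell, against 3 and 1 of 13. Among 5 genes for redox and detoxification 1 rose and 1 fell, against 3 and 9 of 22 elsewhere. Of 2 genes for organelle gene expression 1 rose and 0 fell, against 1 and 5 of 20 elsewhere, and of 4 kinases and phosphatases and 2 disease resistance genes 0 were called at 0 DAT by edgeR or DESeq2 and 0 had an unadjusted p under 0.05 on that day. At 1 DAT 2 of the 4 kinases and phosphatases had an unadjusted p under 0.05 and 0 were called by edgeR or DESeq2. Elsewhere 5 of 24 kinases and phosphatases rose and 7 fell at 0 DAT, and 1 of 4 disease resistance genes rose. No chaperone of the list lies in the middle. Tested middle genes outside these lists numbered 42, of which 15 rose and 3 fell, against 21 and 23 of 114 elsewhere.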

How the data were processed

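RNA-seq was paired-end, and per the labels the reads were trimmed with Trimmomatic and quantified with kallisto. Their versions and the transcript index are not given in the sources used here, and the study does not describe the construction of these libraries. The authors deposited 1 table of estimated counts for 137056 transcripts in 24 libraries, in which 38.8% of the values are not whole. Kallisto divides reads among similar transcripts, so values of near-identical homoeologous copies are uncertain. A separate gene table matched none of the identifiers, and no coordinates were used.

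Estimated counts were summed per gene and rounded. Groups were taken from the sample titles. Genes were filtered (filterByExpr, minimum count 10, minimum total 15), scaled with TMM factors and tested two-sided with edgeR 4.0.16 in R 4.3.3 by the quasi-likelihood test with 1 mean for each of the 6 groups. P-values were adjusted over all 47489 tested genes by the Benjamini-Hochberg method, and a call is an adjusted p under 0.05. The standard error was derived from the log2 fold change and the F statistic. CPM use TMM-scaled library sizes. Tables were made with Python 3.11, pandas 2.3.3 and NumPy 2.4.6, and the fit was tested on simulated data. Replicates are separate pools of plants, and no batch is given in the labels. Leaf samples were taken from the same plants on the 3 days, so the pool of plants was tried as a block for differences of the heat effect. The replicate number was assumed to mark the same pool on each day. Same-numbered heat and control libraries deviated together at 1 DAT (r = 0.148 to 0.494 over 4 pairs) and 4 DAT (0.287 to 0.470), so the number pairs them there by the data, not by the labels, and at 0 DAT only 1 of 4 pairs was over 0.1.

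The middle set and the gene lists were chosen with earlier results of these data known. Named for each day were called middle genes whose 4 heat and 4 control libraries did not overlap and whose higher group averaged 5 CPM or more, up to 8 in each direction with annotation text and 2 without. Also named were up to 4 in each direction, with text, for each difference of the heat effect, the 3 most abundant genes, and annotated families with at least 3 tested copies. Target sites were printed for the first 3 genes named at 0 DAT, and others where stated. Alternatives were other tests (DESeq2 1.42.0, the edgeR likelihood ratio test), no filter, scaling by totals, blocks, counts per transcript, other rank limits and detection minimums, libraries left out, and each day alone.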

Additional observations from a re-analysis of the deposited data

Results flagged for a closer look

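Stray libraries were looked for in 258 sets of 4 libraries, and 34 had a highest or lowest library far from the others by Dixon's criterion at 95%. For normally distributed values chance gives about 1 in 20, or 12.9. A library above 0 beside libraries at 0 is always flagged, so the 34 do not show an excess. In control libraries the flags of TraesCS2D01G311400, TraesCS4A01G226700 and TraesCS4D01G180800 rest on 1 or 2 counts. Of the measures over the whole middle, control 0 DAT replicate 2 had the lowest median level, 2.76 as log2(CPM + 1). The share of counts from middle genes was highest in heat 0 DAT replicate 1, 22.9%, and lowest among the controls of that day in replicate 3, 18.6%.

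Heat libraries that stood apart, as CPM, were replicate 1 of 0 DAT with 51.1 for TraesCS4A01G226700 and 24.4 for the kynurenine formamidase TraesCS6B01G203100. At 1 DAT they were replicate 1 with 34.1 for TraesCS7D01G249800, replicate 2 with 3.76 for the syntaxin TraesCS4A01G208100, replicate 3 with 20.9 for TraesCS1B01G239500 and replicate 4 with 5.87 for the ROOT HAIR DEFECTIVE 3 homolog TraesCS6D01G207800. At 4 DAT replicate 1 was low with 2.85 for the GRAS gene TraesCS6B01G277400, replicate 3 was high with 30.7 for the chitinase TraesCS2B01G369000 and replicate 4 with 98.9 for tripeptidyl-peptidase 2, TraesCS6B01G278200.

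Control libraries of 0 DAT that stood apart were replicate 2 with 1.24 CPM for the F-box gene TraesCS4B01G232400 and replicate 3 with 105 CPM for the aldo/keto reductase TraesCS2A01G254200, 8.07 CPM for katanin TraesCS3A01G294400, 4694 CPM for TraesCS3D01G223300 and 0.0837 CPM for TraesCS4D01G180800. At 1 DAT replicate 1 was low for TraesCS4B01G232400 (0.700 CPM) and the zinc finger gene TraesCS5D01G239200 (12.4 CPM) and had 0.134 CPM of TraesCS2D01G311400 and of TraesCS4A01G226700, which were at 0 in the other controls of that day. Replicate 2 was high for TraesCS1D01G207100 (13.99 CPM), TraesCS2A01G323000 (11.8 CPM) and TraesCS3D01G260500 (18.8 CPM). Replicate 3 was high for pyruvate kinase TraesCS3A01G239300 (4.15 CPM) and the aminotransferase TraesCS6A01G172400 (7.17 CPM), and low for the Nod 19 gene TraesCS7A01G264500 (149 CPM). At 4 DAT replicate 2 was high for TraesCS1B01G239500 (2.47 CPM) and low for the nuclear factor Y gene TraesCS4A01G277300 (10.4 CPM), replicate 3 was high for TraesCS7A01G251800 (11.4 CPM) and TraesCS2D01G311400 (0.227 CPM), and replicate 4 was high for the 3 most abundant middle genes, TraesCS3A01G230000 (5311 CPM), TraesCS3B01G259300 (5016 CPM) and TraesCS3D01G223300 (5478 CPM).

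The heat effect differed between days, by edgeR's test of the difference itself, for 1262 middle genes (1 DAT minus 0 DAT) and 1733 (4 DAT minus 0 DAT). Between 1 and 0 DAT the log2 difference was 5.95 for TraesCS7D01G249800, 5.53 for TraesCS7A01G251800, 2.41 for TraesCS2A01G254200, 1.5 for TraesCS7A01G264500, 1.47 for the ligase TraesCS1D01G211600 and 1.25 for TraesCS6B01G278200. It was -4.23 for TraesCS6D01G207800, -1.34 for the hexosyltransferase TraesCS4B01G160500, -1.15 for the auxin receptor TraesCS2B01G302900 and -0.96 for squalene monooxygenase TraesCS4B01G235500. With a block for each plant pool the calls of TraesCS6D01G207800 (edgeR adjusted p = 0.089), TraesCS4B01G160500 (0.091), TraesCS4B01G235500 (0.1) and TraesCS6B01G278200 (0.083) ended. Of 23 alternatives the call of TraesCS4B01G235500 ended in 19, of which 15 of the 16 that leave out 1 library, that of TraesCS4B01G160500 in 16 (12 of 16) and that of TraesCS6B01G278200 in 11 (9 of 16). TraesCS6D01G207800 was also not called without control 1 DAT replicate 4 (0.11) or heat 0 DAT replicate 1 (0.069). The call of TraesCS1D01G211600 ended without control 0 DAT replicate 2 (0.063), control 1 DAT replicate 1 (0.052) or 4 (0.058) and under scaling by totals (0.1), that of TraesCS2B01G302900 without control 1 DAT replicate 1 (0.051), and that of TraesCS7A01G264500 under scaling by totals (0.23).

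Between 4 and 0 DAT the log2 difference was 6.26 for TraesCS7D01G249800, 6.00 for TraesCS7A01G251800, 2.40 for TraesCS4B01G232400, 2.06 for TraesCS2A01G254200, 1.59 for TraesCS7A01G264500, 1.21 for TraesCS6B01G278200 and 0.78 for TraesCS5D01G239200. It was -2.14 for the polyphenol oxidase TraesCS3B01G355900, -1.79 for TraesCS4B01G160500, -1.70 for TraesCS4A01G208100, -1.45 for TraesCS1D01G211600, -1.04 for TraesCS2B01G302900 and -1.03 for TraesCS6A01G172400. The fitted -13.15 for TraesCS2D01G311400 and -14.70 for TraesCS4A01G226700 depend on the prior count, since whole groups were at 0. With a block for each plant pool the calls of TraesCS3B01G355900 (edgeR adjusted p = 0.08), TraesCS4A01G208100 (0.073) and TraesCS6B01G278200 (0.079) ended, and the call of TraesCS4B01G232400, which averaged 0.763 CPM, ended in 15 of 23 alternatives (12 of the 16 that leave out 1 library). Over the same alternatives TraesCS3B01G355900 was lost in 14 (11 of 16), TraesCS6B01G278200 in 10 (7 of 16) and TraesCS4A01G208100 in 7 (5 of 16). The call of TraesCS1D01G211600 ended without control 4 DAT replicate 2 (0.052) and without the 4 dominated libraries (0.097), that of TraesCS2A01G254200 without these 4 libraries (0.088) and that of TraesCS7A01G264500 under scaling by totals (0.21).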

How the results depend on the processing

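The 3806 calls of 0 DAT became 1911 with ranks from 45% to 55% and 7438 with 30% to 70%, and 3198 to 3512 without 1 library. The 2289 calls of 1 DAT became 1276 with the 8 libraries of that day alone, 1340 with library totals, 1186 and 4385 with the narrower and wider ranks, and 1776 to 2256 without 1 library. The 47 calls of 4 DAT became 120 with DESeq2, 125 with the likelihood ratio test, 4 without the 4 dominated libraries, 6 with the 8 libraries alone, 21 with totals, 20 with counts per transcript, 21 and 76 with the narrower and wider ranks, and 12 to 36 without 1 library. The 1262 differences between 1 and 0 DAT became 643 and 2378 with these ranks and 854 to 1452 without 1 library. The 1733 between 4 and 0 DAT became 874 and 3303, 1046 without the dominated libraries and 1383 to 1829 without 1 library. With the replicate number as a block 3647, 2099, 31, 1119 and 1566 genes were called in the 5 comparisons. At 0 DAT, where same-numbered libraries correlated at -0.0519 to 0.178, the number is only a number. Of the named calls of 1 and 4 DAT the block ended that of TraesCS3D01G260500 at 4 DAT alone. The block gives each number 1 effect shared by the 3 days, and so cannot take up a pairing particular to a day. Same-numbered heat libraries of 1 and 4 DAT correlated at -0.486 to -0.0489. Whether these calls hold with a pairing within each day was not tested.

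The share called in the middle minus that elsewhere, -1.41 points at 0 DAT (-1.65 to -0.955 without 1 library), was 0.885 without a filter and 0.976 with totals. At 1 DAT it was 0.574 (0.296 to 0.848) and -0.199 with the 8 libraries alone. The difference in detected genes, 10.8 points, was 11.3 at a minimum of 0.5 CPM, 7.29 at 5 CPM, 7.22 per transcript, and 10.2 and 11.6 with the narrower and wider ranks. The difference in median level, 0.14 (log2), was 0.20 at 0.5 CPM, 0.0028 at 5 CPM, 0.12 per transcript and 0.098 with the wider ranks. The share of counts, 19.8%, was 25.6% without the 10 most abundant genes, and 9.36% and 47.5% with the narrower and wider ranks. Of 53 calls of named genes 21 were kept under every alternative fit per gene in which the gene was tested. Counts per transcript were not tried for single genes. No called value changed sign, while 6 named values without a call did under some alternative. Among them was the GRAS gene TraesCS6D01G229400 at 0 DAT (0.44 with totals). Depth limited genes near 1 CPM, which rest on 5403090 to 16111870 counts a library.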
